A study of Gossypium hirsutum with 12 samples.

Results

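Root tips of water-stressed cotton seedlings were compared at 48 h (WS48) and at 24 h (WS24) after transplanting, which asks how the transcriptome of a root growing under a constant water deficit changed during its second day of stress. The members of this comparison are 6 of the 12 RNA libraries of the series, 3 of WS48 and 3 of WS24, and every gene of the deposited count table that passed the low-count filter. Both groups are the Gossypium hirsutum genotype AU90810 held in the dark in vermiculite whose water potential was -1.0 MPa, without later watering, and both gave the apical 6 mm of the primary root, frozen and pooled over seedlings. The other 6 libraries come from well-watered seedlings at -0.02 MPa, the apical 12 mm at 48 h (WW48) and at 24 h (WW24), and serve here for the shared estimate of spread and for the time change without stress. Water potential, tip length, tissue and genotype are therefore the same in WS48 and WS24, and time after transplanting differs, together with the root length and age that go with it. Each library is a piece of tissue that holds meristem, elongation zone and some maturing cells, so fewer cells of a type and less RNA per cell cannot be told apart.

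Roots that keep growing at low water potential do so in a short zone behind the tip. Hormone signals led by abscisic acid (ABA), solutes such as proline and sugars, enzymes that loosen or stiffen the cell wall, and systems that hold reactive oxygen in check all take part in that growth. Farther from the tip, cells stop elongating, and some become xylem whose walls are hardened by lignin, a polymer that laccases and class III peroxidases make from phenolic units. Lipid-transfer proteins, small secreted proteins that bind lipids, are common in the outer walls of young plant organs.

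Reads in genes numbered 9190346 to 10617773 in the 6 stressed libraries and made up 61.6% to 68.8% of the reads counted. In a principal component analysis the WS48 and WS24 libraries did not mix, and WS48 replicate 2 stood apart from the other WS48 libraries. On the first component of the 6 stressed libraries, which held 51.7% of the variance, the WS48 replicates 1, 2 and 3 lay at -26.5, -98.7 and -31.6, against 44.2, 62.1 and 50.5 in WS24. The chi-square per degree of freedom between counts was 6.82 and 6.13 for the pairs that hold WS48 replicate 2, against 2.05 for WS48 replicates 1 and 3 and 2.47 to 3.08 for the WS24 pairs. WW24 replicate 2, a library outside the comparison, stood farther from its group, with 33.0 and 31.6. The median over genes of the standard deviation of log2(CPM + 0.5) among replicates was 0.164 in WS48, 0.150 in WS24, 0.236 in WW48 and 0.352 in WW24, and 0.133 in WW24 without its replicate 2. All levels below are CPM, the reads of a gene per 1000000 reads in genes, with library sizes scaled by TMM (trimmed mean of M values).

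**Figure D1:**
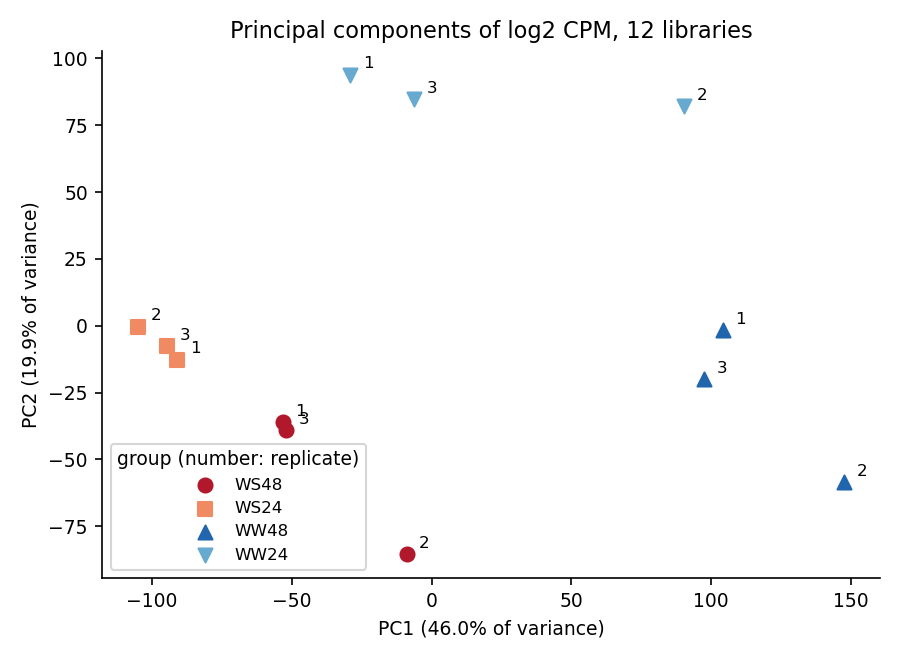
First (x) and second (y) principal components of log2 CPM for the 12 libraries, with 1 point per library, the group given by color and symbol and the replicate by number. The WS48 points lie to the right of the WS24 points, WS48 replicate 2 lies apart from replicates 1 and 3, and WW24 replicate 2 lies apart from its group, at 90.4 on the first component.

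Of 43938 genes tested with all 12 libraries in 1 model, 56 rose in WS48 over WS24 (0.127% of the genes tested) and 112 fell (0.255%). The test was edgeR's quasi-likelihood test with Benjamini-Hochberg adjustment (edgeR QL below), and a gene counted as called when its adjusted p was at most 0.05 and its log2 fold change was 1 or more, or -1 or less. Most transcripts moved little: 92.8% of genes lay within 1 on the log2 scale, and the median over all genes was 0.001. In all 168 called genes the WS48 and WS24 libraries did not overlap. Among all genes tested, the 3 WS48 libraries lay above the 3 WS24 libraries in 7371 (16.8%) and below them in 7342 (16.7%).

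The number of calls depended on libraries outside the comparison. With the 6 stressed libraries alone in the model, 1061 of 41250 genes were called higher (2.57%) and 468 lower (1.13%), and higher calls were 69.4% of all calls, against 33.3% with 12 libraries. With WW24 replicate 2 left out of the 12, the counts were 832 higher and 382 lower. With WS48 replicate 2 left out of the 6, they were 937 and 461. Leaving any 1 of the 6 stressed libraries out of the 12-library model left 6 to 12 higher and 16 to 37 lower calls. Of the 168 genes called with 12 libraries, 164 were called in the same direction with 6. Below, "rose" and "fell" without further words refer to the 12-library model, and calls of the 6-library fit are named as such.

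**Figure D2:**
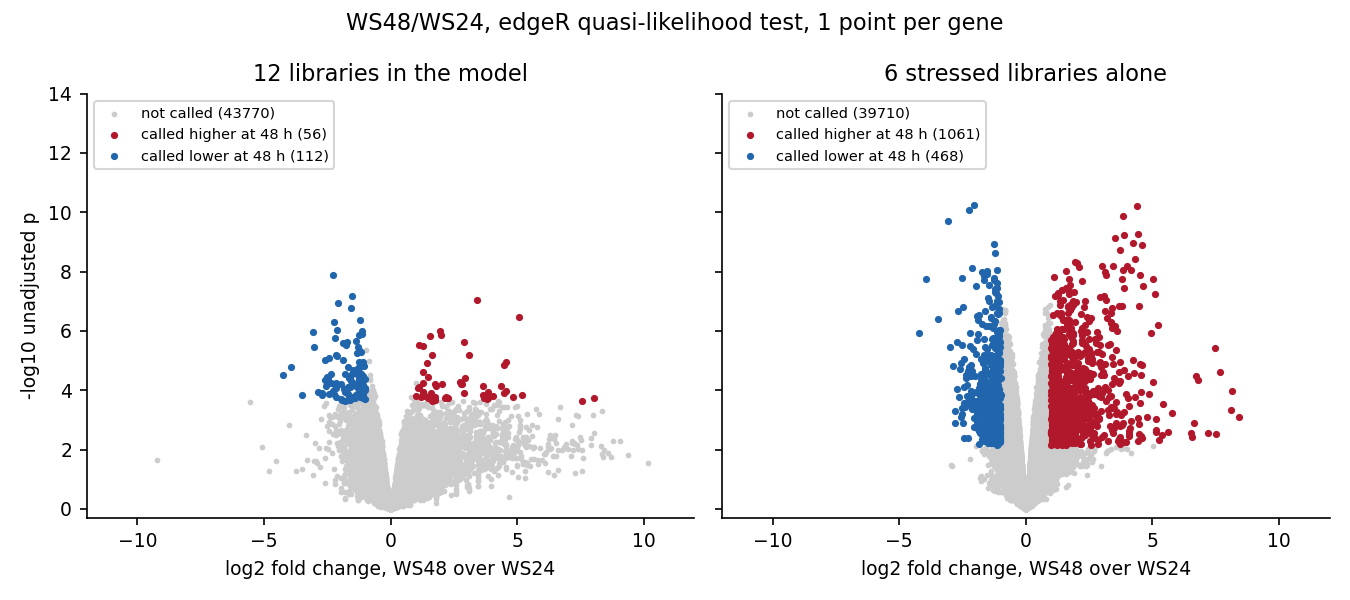
Log2 fold change of WS48 over WS24 (x) against -log10 of the unadjusted p (y), 1 point per gene, for the 12-library model (left) and the 6 stressed libraries alone (right), with called genes in color. The right panel holds 1061 higher and 468 lower calls, the left 56 and 112.

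Functions were known for 1545 of the genes tested, and 14 of these rose and 12 fell. With the 6 stressed libraries alone, which tested 1383 of them, 96 were called higher and 56 lower. Group sizes below are the genes tested with 12 libraries. The calls in each group stand beside 0.127% higher and 0.255% lower of all genes with 12 libraries, and 2.57% and 1.13% with 6. Counts without overlap stand beside 16.8% above and 16.7% below. Of the genes with a function, 0.906% rose and 0.777% fell, and 6.94% and 4.05% were called higher and lower with 6. Of the 1545 genes, 1349 carry a function because the study had picked them for a change in WS48 against well-watered tips. Those genes share the WS48 libraries with the present comparison and are not independent evidence of direction. The other 196 were listed by the study only through ortholog groups that hold such genes, a selection that also drew on these libraries, and of them 13 were called higher and 4 lower in the 6-library fit.

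The largest called rise with a known function was in a run of lipid-transfer protein genes with neighbouring IDs on chromosomes A11 and D11, the chromosomes of the same number in the A and D subgenomes of this tetraploid. Of 27 genes of the family tested, 5 rose (18.5%, against 0.127% of all genes) and none fell. With the 6 stressed libraries alone 6 were called higher and 1 lower (24.0% and 4.0%, against 2.57% and 1.13% of all genes). The family's median log2 fold change was 0.14, against 0.001 over all genes. The 5 that rose carry the annotation bifunctional inhibitor/lipid-transfer protein/seed storage 2S albumin superfamily protein, which does not settle that they bind lipids. Gh_D11G0250 had 13.3, 6.62 and 11.1 CPM in the WS48 libraries, against 0.747, 0.287 and 0.305 CPM in WS24. Its neighbour Gh_D11G0251 had 10.4, 8.40 and 9.74 CPM in WS48, against 0.747, 0.958 and 0.914 CPM in WS24. Both were near the lower end of detection at 24 h, and every WS48 library stood several times above every WS24 library. Their log2 fold changes were 4.48 ± 0.65 (standard error, edgeR QL adjusted p = 0.0139) and 3.43 ± 0.31 (edgeR QL adjusted p = 0.00129). Gh_D11G0251 was called in all 21 alternatives tried.

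The same pattern was seen on A11. Gh_A11G0236 had 11.3, 13.1 and 9.32 CPM in WS48, against 1.77, 1.63 and 1.02 CPM in WS24, a log2 fold change of 2.92 ± 0.36 (edgeR QL adjusted p = 0.00520). In the well-watered libraries this gene was far more abundant, at 176 to 328 CPM in WW48 and 281 to 505 CPM in WW24, so the WS48 level remained a small part of the watered one. More abundant members rose less in fold. Gh_D11G0252 averaged 87.9 ± 10.6 CPM in WS48 and 21.9 ± 3.55 CPM in WS24 (SD, n = 3 each; log2 fold change 2.00, edgeR QL adjusted p = 0.00414). Gh_A11G0237 averaged 75.9 ± 12.9 CPM in WS48 and 19.8 ± 0.702 CPM in WS24 (SD, n = 3 each; log2 fold change 1.93, edgeR QL adjusted p = 0.00397).

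The remaining members named here were chosen after their values had been seen, to complete it. Gh_D11G0254 had 179, 137 and 164 CPM in WS48, against 59.98, 92.9 and 81.8 CPM in WS24, and missed the threshold with 12 libraries (log2 fold change 1.03, edgeR QL adjusted p = 0.0522). Gh_A11G0239 averaged 108 CPM in WS48 and 66.7 CPM in WS24, and was below the fold threshold. Gh_A11G0235 had 36.1 to 42.5 CPM in WS48 and 26.3 to 33.5 CPM in WS24, a small but complete separation (0.36). The lower-numbered neighbours Gh_A11G0233 and Gh_A11G0234 and Gh_D11G0247, Gh_D11G0248 and Gh_D11G0249, all at 289 CPM or more in every stressed library, had log2 fold changes between -0.24 and 0.14 with overlapping groups. The calls thus fell on 2 adjacent IDs of the A11 run and 3 of the D11 run, which were the genes with the lowest WS24 levels of each run. WS24 is the denominator of the fold change, so a low WS24 level in called genes is no separate evidence. Near-identical copies can share reads, so the split of counts between neighbours is uncertain. The single call against the direction, in the 6-library fit, was Gh_D08G1846 on another chromosome, with 0.635 to 1.06 CPM in WS48 and 2.39 to 2.99 CPM in WS24.

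**Figure D3:**
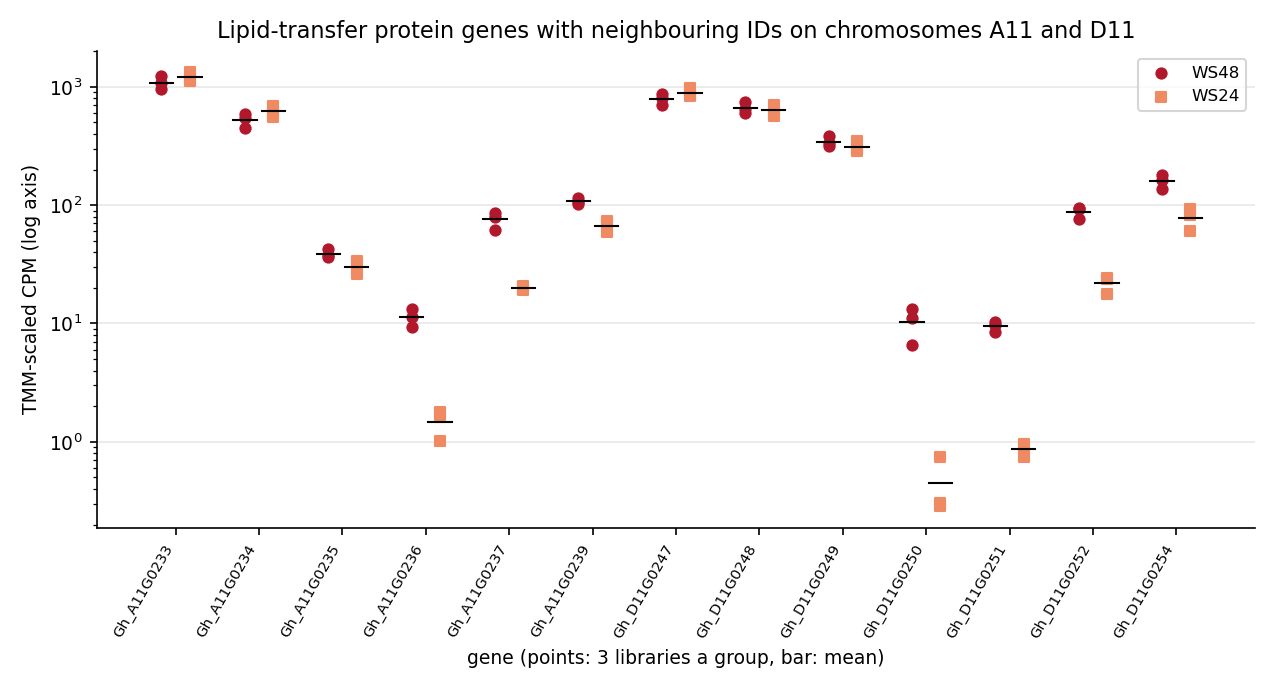
TMM-scaled CPM (log axis) of the 13 lipid-transfer protein genes in the A11 and D11 runs, ordered by ID, with the 3 WS48 libraries left of the 3 WS24 libraries and a bar at each mean. Gh_A11G0236, Gh_A11G0237, Gh_D11G0250, Gh_D11G0251 and Gh_D11G0252 show separate groups, while Gh_A11G0233 and Gh_D11G0247 overlap near the top of the axis.

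A second pair on the same chromosomes rose with little spread. Gh_A11G1551 and Gh_D11G1706 encode methylenetetrahydrofolate reductases, which supply the methyl group used to make methionine. Gh_D11G1706 had 71.5, 72.6 and 70.8 CPM in WS48, against 34.5, 33.6 and 31.4 CPM in WS24. Gh_A11G1551 had 105, 89.3 and 86.8 CPM in WS48, against 37.5, 35.3 and 43.3 CPM in WS24. Neither gene's groups came near each other. The log2 fold changes were 1.11 ± 0.14 for Gh_D11G1706 (edgeR QL adjusted p = 0.00575) and 1.28 ± 0.16 for Gh_A11G1551 (edgeR QL adjusted p = 0.00584), and each was called in 19 of 21 alternatives. Reads that fit both subgenome copies cannot be separated.

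Among redox genes, glutathione S-transferases stood out. These enzymes join glutathione to reactive or foreign compounds, and all 5 tested belong to the plant-specific tau class. One rose with 12 libraries, all 5 were called higher in the 6-library fit, and all 5 had WS48 libraries above WS24 (median log2 fold change 2.81). Of all genes tested, 0.127% rose with 12 libraries, 2.57% were called higher with 6, and 16.8% lay above WS24 without overlap. In well-watered tips all 5 were also called higher in WW48 than in WW24, as were 3.53% of all genes. Their median log2 fold change there was 3.01. Gh_D13G1617, named TAU 19, had 9.21, 32.6 and 11.5 CPM in WS48, against 1.77, 2.78 and 3.05 CPM in WS24 (log2 fold change 2.81, edgeR QL adjusted p = 0.0299). The other 4, named TAU 8, were listed only through their ortholog groups. Gh_A09G1509 had 70.6, 412 and 64.9 CPM in WS48, against 29.3, 16.1 and 30.6 CPM in WS24. Gh_D09G1520 had 152, 386 and 147 CPM in WS48, against 68.8, 52.7 and 76.9 CPM in WS24. Gh_A09G1510 had 1.82, 53.6 and 2.33 CPM in WS48, against 0.561, 0.383 and 0.203 CPM in WS24.

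In all of these the level of WS48 replicate 2 was the highest, and the size of the change rested on it in part. In the 6-library fit the log2 fold change of Gh_A09G1509 was 2.87, and 1.42 without WS48 replicate 2. That of Gh_A09G1510 was 5.63, and 2.38 without it. That of Gh_D09G1520 was 1.80, and 1.18 without it, and without it all 3 had an edgeR QL adjusted p of 0.00415 or less. Gh_A09G1508, the remaining copy, was called with the 6 libraries (log2 fold change 1.34, edgeR QL adjusted p = 0.0210) but not without WS48 replicate 2 (0.95, edgeR QL adjusted p = 0.0558).

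The enzymes that directly remove reactive oxygen or repair its damage gave no such calls. None of the 16 antioxidant genes tested was called by edgeR QL with 12 or with 6 libraries, or by DESeq2, while 2 of 16 and 5 of 14 had an unadjusted p under 0.05 in the 12- and 6-library fits, where 14.1% and 29.2% of all genes tested did. Their median log2 fold change was -0.19. Gh_D09G1582, named ferritin 1 (spelled ferretin in the table) after the iron-storage protein, had 10.7, 29.4 and 8.90 CPM in WS48, against 6.17, 9.29 and 7.62 CPM in WS24, and its groups overlapped. Gh_D03G1000, a methionine sulfoxide reductase that repairs oxidized protein, averaged 9.71 CPM in WS48 and 6.45 CPM in WS24 and stayed under the fold threshold. Sulfate transporters and sulfotransferases gave no call among 12 genes in either edgeR QL fit, with 1 and 2 at an unadjusted p under 0.05 and 1 call by DESeq2.

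Class III peroxidases, secreted enzymes that use hydrogen peroxide to crosslink wall phenolics or release radicals, were mixed. Of 23 tested, none was called with 12 libraries, and 4 were called higher and 1 lower with 6. Gh_A12G2370 had 28.8, 26.3 and 24.8 CPM in WS48, against 7.01, 5.94 and 9.44 CPM in WS24. Gh_D12G2504, with the same function on D12, had 27.5, 24.2 and 20.4 CPM in WS48, against 7.38, 4.31 and 8.53 CPM in WS24. Both were called higher in the 6-library fit, with log2 fold changes of 1.85 each (edgeR QL adjusted p = 6.88e-05 for Gh_A12G2370 and 0.000349 for Gh_D12G2504), and neither was called with 12 libraries (edgeR QL adjusted p = 0.155 and 0.169). Gh_A07G0012 went the other way, with 1.43 to 3.17 CPM in WS48 and 4.20 to 6.50 CPM in WS24.

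Laccases and lignan proteins had the most calls in 1 direction of the wall groups in the 6-library fit, and none with 12 libraries. All 14 genes tested had a positive log2 fold change, with a median of 1.02, and in 11 the WS48 libraries lay above the WS24 libraries, as in 16.8% of all genes. With 12 libraries, 6 had an unadjusted p under 0.05 and DESeq2 called 5. With 6 libraries 8 were called higher, and 7 without WS48 replicate 2. Gh_D08G1661, a pinoresinol reductase, which makes lignans from coupled phenolic units, had 17.2, 18.0 and 18.3 CPM in WS48, against 3.83, 5.07 and 5.38 CPM in WS24. Its A08 counterpart by function, Gh_A08G1366, had 4.99, 4.65 and 4.55 CPM in WS48, against 1.68, 1.53 and 1.02 CPM in WS24. The replicates of both were tight and the groups well apart. For Gh_D08G1661 the edgeR QL adjusted p was 3.54e-05 with 6 libraries and 0.128 with 12, at log2 fold changes of 1.91 and 1.90. In the watered libraries that enter the second value, WW24 replicate 2 held 102 CPM and the other WW24 libraries 22.4 and 23.1 CPM.

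Laccase 14, 1 of the oxidases that couple lignin units, was measured from 3 genes. Gh_A05G2114 had 13.7, 31.1 and 13.6 CPM in WS48, against 4.39, 2.87 and 4.98 CPM in WS24. Gh_A05G2115 had 21.8, 29.1 and 23.3 CPM in WS48, against 7.38, 5.17 and 12.1 CPM in WS24. Gh_D05G2355 had 10.3, 51.1 and 15.4 CPM in WS48, against 8.78, 4.79 and 7.51 CPM in WS24. WS48 was higher throughout, and replicate 2 was the highest of the WS48 libraries in each. All 3 were called in the 6-library fit (log2 fold changes 2.27, 1.61 and 1.89), and Gh_D05G2355 fell under the fold threshold without WS48 replicate 2 (0.86). The well-watered tips held more of each, at 203 to 544 CPM in WW48 and 26.6 to 313 CPM in WW24.

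**Figure D4:**
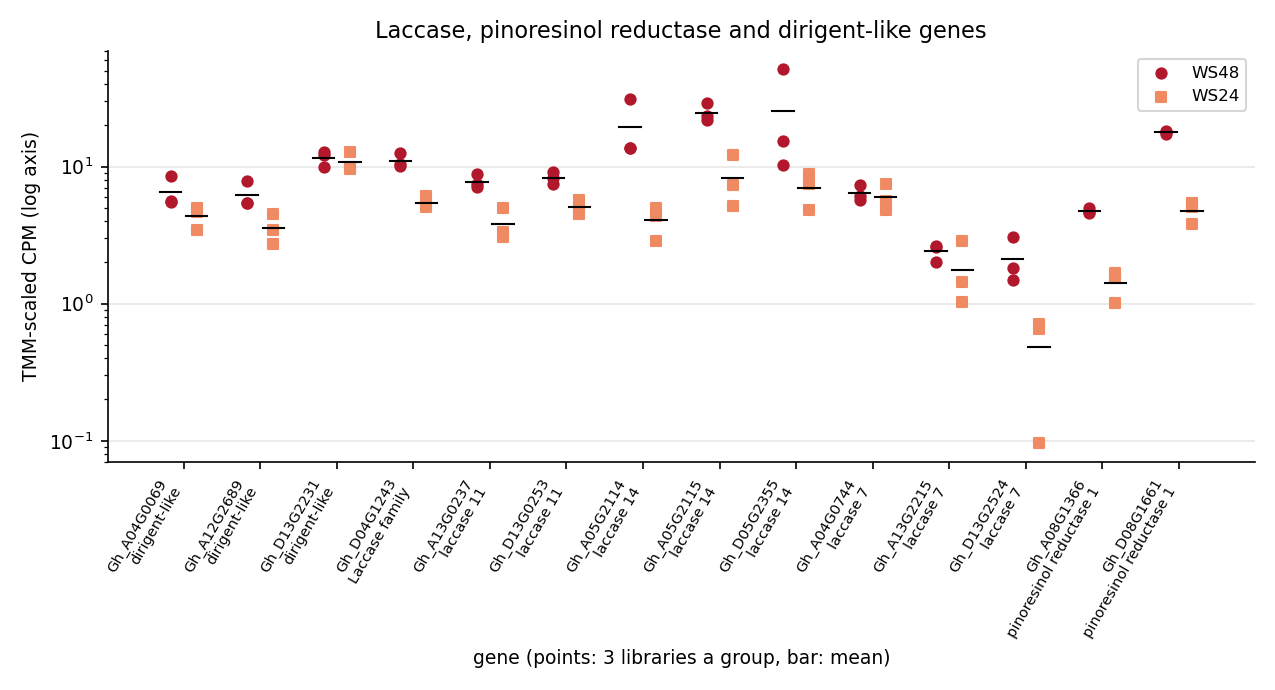
TMM-scaled CPM (log axis) of the 14 genes for laccases, pinoresinol reductases and dirigent-like proteins, with the 3 WS48 libraries left of the 3 WS24 libraries and a bar at each mean. The WS48 mean lies above the WS24 mean in each gene, and the pinoresinol reductase pair at the right shows the least spread.

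Acyltransferases, O-methyltransferases and cytochrome P450 genes also gave calls, and a family name alone does not place a gene in phenolic metabolism. Gh_A06G1699, a hydroxycinnamoyl-CoA shikimate/quinate hydroxycinnamoyl transferase on the path to lignin units, had 5.57, 6.62 and 5.29 CPM in WS48, against 1.12, 0.862 and 1.32 CPM in WS24 (6-library log2 fold change 2.41, edgeR QL adjusted p = 0.000226). Gh_D13G2547, an acyltransferase of the same HXXXD family, rose with 12 libraries, with 3.07, 3.40 and 2.33 CPM in WS48, against 1.03, 0.766 and 0.812 CPM in WS24 (log2 fold change 1.74, edgeR QL adjusted p = 0.0445). The family of 25 had 1 call higher with 12 libraries, and 4 higher and 1 lower with 6. The last 2 counts were 21.1% and 5.26% of those tested there, against 2.57% and 1.13% of all genes. Of 14 O-methyltransferases, 12 had positive values, with a median of 1.66. Without overlap, 6 lay above and 2 below WS24, where 16.8% and 16.7% of all genes did so. With 6 libraries 1 was called in each direction (12.5% each of those tested there). Gh_A10G2271 had 7.15 to 8.47 CPM in WS48 and 19.7 to 20.9 CPM in WS24, while Gh_A12G0326 had 4.02 to 7.39 CPM in WS48 and 1.24 to 2.54 CPM in WS24. The 14 O-methyltransferases summed to 172.5, 277.7 and 147 CPM in WS48, against 186.8, 201.6 and 203.6 CPM in WS24. WS48 replicate 2 stood out in Gh_A11G2625 (0.288, 18.95 and 1.38 CPM) and Gh_A12G2188 (2.40, 28.6 and 3.81 CPM), neither called. The 6-library log2 fold change of Gh_A12G2188 was 2.35, and 0.41 without that replicate. Of 21 cytochrome P450 genes, 1 rose and none fell, and 4 were called higher with 6 libraries (26.7% of those tested there, against 2.57% of all genes). The one that rose, Gh_D01G1909, had 10.4, 7.51 and 8.05 CPM in WS48, against 2.34, 1.53 and 1.93 CPM in WS24 (log2 fold change 2.15, edgeR QL adjusted p = 0.0450).

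Enzymes that remodel the growing wall changed in both directions. Gh_D01G1277, a xyloglucan endotransglucosylase/hydrolase (XTH32) that cuts and rejoins the polymer tying cellulose together, fell, with 1.54, 0.805 and 2.12 CPM in WS48, against 5.98, 4.50 and 5.38 CPM in WS24 (log2 fold change -1.84, edgeR QL adjusted p = 0.0345). The xyloglucan group of 12 nevertheless had a median of 0.74, and 10 of its genes had positive values, while the 6-library fit called 1 higher and 2 lower. The second lower one, Gh_A03G0243, had 2.98, 1.25 and 1.69 CPM in WS48, against 5.61, 5.65 and 6.30 CPM in WS24. Gh_A02G1729, the abundant XTH16, averaged 277 CPM in WS48 and 154 CPM in WS24, under the fold threshold at 0.84. Gh_D08G0272, of the same family, had 51.7, 58.5 and 54.1 CPM in WS48, against 34.4, 24.1 and 22.7 CPM in WS24, and was called higher with the 6 libraries (1.02) though not without WS48 replicate 2 (0.96).

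Expansins, which loosen walls without cutting them, gave mostly negative values. Of 12 tested, 10 had negative values, with a median of -0.40. The 6-library fit called 1 higher and 1 lower, and 2 higher and 1 lower without WS48 replicate 2. Gh_A13G0050, an abundant expansin A8, had 137, 112 and 129 CPM in WS48, against 218, 278 and 240 CPM in WS24, just under the fold threshold (-0.96). Gh_D03G1609, an expansin-like B1 with no read in any well-watered library, went against the group, with 24.0, 17.3 and 31.1 CPM in WS48, against 7.01, 5.84 and 10.4 CPM in WS24 (log2 fold change 1.64, edgeR QL adjusted p = 0.0610 with 12 libraries and 0.00134 with 6). Pectin-modifying enzymes gave no call with 12 libraries and 2 lower with 6, among 41 genes with a median of -0.25, and 1 higher and 1 lower without WS48 replicate 2. The leading one, the pectate lyase Gh_D02G1579, averaged 11.4 CPM in WS48 and 23.3 CPM in WS24.

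The genes that fell with a known function included several membrane transporters. Gh_D05G3116, of the major facilitator superfamily of small-molecule carriers, had 2.40, 1.07 and 1.48 CPM in WS48, against 10.8, 11.01 and 10.4 CPM in WS24 (log2 fold change -2.69, edgeR QL adjusted p = 0.0420). Gh_D09G1331, pleiotropic drug resistance 11, an ABC transporter, had 2.69, 1.88 and 1.38 CPM in WS48, against 9.996, 10.4 and 7.11 CPM in WS24 (log2 fold change -2.20, edgeR QL adjusted p = 0.00458). Gh_D06G0667, a MATE family exporter, had 1.54, 1.61 and 1.27 CPM in WS48, against 6.45, 5.07 and 3.76 CPM in WS24 (log2 fold change -1.78, edgeR QL adjusted p = 0.0218). In each, all WS48 libraries lay below all WS24 libraries. Gh_A11G2371, a second major facilitator gene, averaged 11.9 CPM in WS48 and 24.9 CPM in WS24.

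Other carriers were higher in WS48. Gh_A10G0210, sugar transporter 1, which in Arabidopsis imports hexoses together with protons, had 5.95, 7.42 and 5.61 CPM in WS48, against 2.15, 1.72 and 2.95 CPM in WS24 (log2 fold change 1.48, edgeR QL adjusted p = 0.0449). Gh_D02G0542, a Nodulin MtN3 (SWEET) sugar carrier, had 1.43 to 2.33 CPM in WS48 and 0.102 to 0.192 CPM in WS24, and was called with the 6 libraries (log2 fold change 3.46). Gh_A03G0461, of the same family, was called lower there but not without WS48 replicate 2 (-0.99), with 3.84 to 5.51 CPM in WS48 and 7.94 to 13.9 CPM in WS24. Gh_D03G1150, copper transporter 1, a high-affinity copper importer, had 13.4, 10.01 and 12.5 CPM in WS48, against 0.561, 1.44 and 2.95 CPM in WS24, and no read in well-watered tips (log2 fold change 2.87, edgeR QL adjusted p = 0.0505 with 12 libraries and 0.00057 with 6). Gh_D06G0284, annotated as copper ion binding and electron carrier, rose, with 94.9, 68.8 and 88.4 CPM in WS48, against 21.7, 24.9 and 28.2 CPM in WS24 (log2 fold change 1.75, edgeR QL adjusted p = 0.0298).

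Transport of mineral nutrients gave no call with 12 libraries and a few with 6. Of 21 nitrogen transport genes, 3 were called higher and none lower, with a group median of 0.07. Gh_D06G1724, an oligopeptide transporter, had 34.5, 20.9 and 27.3 CPM in WS48, against 13.6, 9.10 and 17.9 CPM in WS24. The others were Gh_D05G0637 (glutamine dumper 1) and Gh_D04G1298 (ammonium transporter 2), and Gh_D04G1298 missed the threshold without WS48 replicate 2 (edgeR QL adjusted p = 0.0776). Of 32 genes of metal transport and binding, 3 were called higher and none lower, with a median of 0.24. Gh_A12G0074, a high affinity K+ transporter 5, had 14.3, 14.4 and 14.5 CPM in WS48, against 5.04, 5.94 and 6.60 CPM in WS24, and was called with 6 libraries (log2 fold change 1.31, edgeR QL adjusted p = 0.000244). Of 8 phosphate genes, 4 had positive and 4 negative values, and 2 purple acid phosphatases, which release phosphate from organic compounds, were called lower. Gh_A06G1838 (type 10) had 23.3, 16.5 and 20.3 CPM in WS48, against 43.6, 39.3 and 43.6 CPM in WS24. Gh_D11G0018 (type 17) had 3.28 to 4.22 CPM in WS48 and 7.62 to 8.97 CPM in WS24. Gh_D04G0974 (type 22) lay the other way, with 15.1 to 20.01 CPM in WS48 and 8.94 to 11.3 CPM in WS24, under the fold threshold (0.74). Gh_A06G1838 was under the fold threshold without WS48 replicate 2 (-0.95). Of 9 aquaporins, membrane channels for water, 2 were called higher and 1 lower with 6 libraries, and 1 and 1 without WS48 replicate 2. Gh_A08G2559, plasma membrane intrinsic protein 2, had 17.7, 12.96 and 17.7 CPM in WS48, against 5.33, 5.94 and 7.31 CPM in WS24.

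Among proteins that coat lipid droplets, a caleosin fell. Gh_D09G0573 had 0.864, 1.16 and 0.529 CPM in WS48, against 5.42, 5.27 and 4.47 CPM in WS24 (log2 fold change -2.53, edgeR QL adjusted p = 0.0315). Gh_A10G0920, an oleosin, had 18.3, 10.3 and 14.7 CPM in WS48, against 58.5, 50.0 and 47.0 CPM in WS24 (log2 fold change -1.84, edgeR QL adjusted p = 0.0666 with 12 libraries and 0.000103 with 6). The other 3 oleosin genes tested had overlapping groups. In the whole list of 23 oleosin, lipase and fatty acid breakdown genes, 1 rose and 1 fell, 1 was called higher and 3 lower with 6 libraries, and the median was 0.08. Gh_A10G0920 was nearly confined to stressed tips, with 0 to 2.16 CPM in the 6 watered libraries. Gh_A03G0871, sphingoid base hydroxylase 2, which adds a hydroxyl group to the backbone of sphingolipids, had 9.50, 6.53 and 7.84 CPM in WS48, against 24.9, 20.0 and 25.9 CPM in WS24 (log2 fold change -1.57, edgeR QL adjusted p = 0.0284). In contrast Gh_D10G0926, phospholipase A 2A, rose, with 26.5, 28.4 and 25.8 CPM in WS48, against 9.996, 8.33 and 10.7 CPM in WS24 (log2 fold change 1.48, edgeR QL adjusted p = 0.0250).

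The remaining genes with a function that fell had varied roles. Gh_D08G1167, a UDP-glycosyltransferase that attaches sugars to small molecules, had 14.8, 13.8 and 13.3 CPM in WS48, against 41.1, 40.8 and 34.4 CPM in WS24 (log2 fold change -1.47, edgeR QL adjusted p = 0.0450). Gh_A11G1803, a cysteine protease with a granulin repeat, had 4.13, 7.96 and 7.84 CPM in WS48, against 17.8, 18.6 and 16.9 CPM in WS24 (log2 fold change -1.42, edgeR QL adjusted p = 0.0453). Gh_D02G1122, annotated as binding, averaged 32.9 ± 5.16 CPM in WS48 and 82.0 ± 12.9 CPM in WS24 (SD, n = 3 each). Gh_D10G0577, a relative of pyridoxal phosphate phosphatases added to the named genes after its values were seen, averaged 4.92 CPM in WS48 and 11.3 CPM in WS24. Gh_D05G1324, a DnaJ-domain co-chaperone, averaged 0.841 CPM in WS48 and 2.68 CPM in WS24. All of them had separate groups. Proteases as a group of 29 had 1 lower call with 12 libraries, and 4 higher and 1 lower with 6. The abundant aspartyl proteases Gh_A05G0509 and Gh_D05G0628 were among the higher ones, and Gh_A05G0509 had 177, 165 and 184 CPM in WS48, against 50.3, 45.5 and 69.1 CPM in WS24.

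ABA genes gave no call. None of the 11 genes of ABA synthesis and breakdown and none of the 43 of ABA perception and signaling was called by edgeR QL with 12 or with 6 libraries, or by DESeq2. At an unadjusted p under 0.05 there were 1 of 11 and 10 of 43 with 12 libraries, and 2 of 11 and 14 of 39 with 6, against 14.1% and 29.2% of all genes. Their median log2 fold changes were -0.05 and -0.15. Gh_D07G0979, a CYP707A2 that inactivates ABA, had 136, 86.0 and 103 CPM in WS48, against 213, 212 and 193 CPM in WS24, a separation that stayed under the fold threshold (-0.93). The nine-cis-epoxycarotenoid dioxygenases Gh_A06G2014 and Gh_D06G1506, the rate-limiting step of ABA synthesis, had 2.98 to 4.38 CPM in WS48 and 3.46 to 6.70 CPM in WS24, with overlapping groups. Of the 43 signaling genes, 14 had WS48 below WS24 without overlap and 2 above, where 16.7% and 16.8% of all genes did so.

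Auxin response genes gave 2 higher calls among the 8 tested with 6 libraries, and none among 9 with 12, and 1 without WS48 replicate 2 or with a replicate block. Gh_D11G2945, a GH3 protein of the family that joins hormones to amino acids, had 2.50, 1.79 and 2.44 CPM in WS48, against 0, 0.383 and 0.102 CPM in WS24. Ethylene and jasmonate genes, 11 and 5 of them, had no call in either fit, and 1 and 2 ethylene genes had an unadjusted p under 0.05.

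Sucrose and sugar transport genes, 16 in all, had 1 higher call with 12 libraries, and 2 higher and 1 lower with 6, the carriers given above. Among genes of proline and polyamine, raffinose, trehalose, inositol and starch metabolism, 1 was called in the 6-library fit and none with 12. Gh_A01G1899, a delta 1-pyrroline-5-carboxylate synthase 2 at the first step of proline synthesis, had 43.1, 40.3 and 38.9 CPM in WS48, against 19.7, 11.6 and 26.7 CPM in WS24, and was called with the 6 libraries (log2 fold change 1.09, edgeR QL adjusted p = 0.00796). The more abundant synthase 1, Gh_D04G1204, averaged 225 CPM in WS48 and 294 CPM in WS24. The 18 genes of raffinose, trehalose and inositol had no call in either edgeR QL fit, 1 by DESeq2, and a median of 0.25. At an unadjusted p under 0.05 there were 5 of 18 with 12 libraries and 8 of 14 with 6, against 14.1% and 29.2% of all genes. Gh_A11G0980, a galactinol synthase 1 that opens the raffinose path, had 178, 181 and 158 CPM in WS48, against 96.3, 81.5 and 103 CPM in WS24 (0.88). Gh_A13G0935, a galactinol synthase 2, went the other way, with 15.6, 12.3 and 19.6 CPM in WS48, against 27.2, 26.4 and 27.9 CPM in WS24 (-0.78). Starch genes also had no call among 16, with 13 negative values and a median of -0.24. Of these, 2 of 16 and 6 of 14 had an unadjusted p under 0.05 with 12 and with 6 libraries. Gh_D04G0999, starch branching enzyme 2.2, had 10.8, 9.74 and 12.2 CPM in WS48, against 22.9, 20.4 and 19.4 CPM in WS24, past the adjusted p but not the fold threshold (-0.94, edgeR QL adjusted p = 0.0393).

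Dehydration-protective proteins gave a single call. Of 20 genes for LEA, dehydrin and related proteins, none was called with 12 libraries and 1 was called lower with 6, with a median of -0.05. The called one, Gh_A07G0202, a temperature-induced lipocalin, had 1.73, 3.40 and 2.97 CPM in WS48, against 3.83, 6.42 and 6.50 CPM in WS24. Chaperones and heat shock proteins, 18 in all, had 1 lower call with 12 libraries, and 1 higher and 2 lower with 6. Gh_D08G1413, a BCL-2-associated athanogene 6 co-chaperone, was the higher one, with 17.9, 18.7 and 21.5 CPM in WS48, against 7.10, 7.95 and 7.51 CPM in WS24.

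Among regulators, 1 gene rose with 12 libraries. Gh_A08G1895, a homeodomain-like protein, had 4.99, 4.38 and 5.61 CPM in WS48, against 1.49, 0.766 and 1.32 CPM in WS24 (log2 fold change 2.05, edgeR QL adjusted p = 0.0298), and 0.435 to 1.13 CPM in the watered libraries. MYB and bHLH factors, 17 and 18 genes, had no call in either fit. Of 18 NAC factors, 2 were called higher with 6 libraries. Gh_A11G0633, NAC domain protein 100, had 1.92, 3.04 and 3.28 CPM in WS48, against 0.934, 0.575 and 0.609 CPM in WS24. Of 109 protein kinases and receptors, 3 were called higher and 1 lower with 6 libraries, and none with 12. Gh_D04G1583, an abundant leucine-rich repeat kinase, had 63.0, 56.8 and 62.5 CPM in WS48, against 25.3, 23.0 and 33.6 CPM in WS24. Defense proteins, 34 in all, had 1 higher and 2 lower calls with 6 libraries. The higher one, the Kunitz protease inhibitor Gh_D10G2219, spread widely, with 80.9, 17.7 and 46.4 CPM in WS48, against 3.74, 2.68 and 16.96 CPM in WS24.

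**Figure D5:**
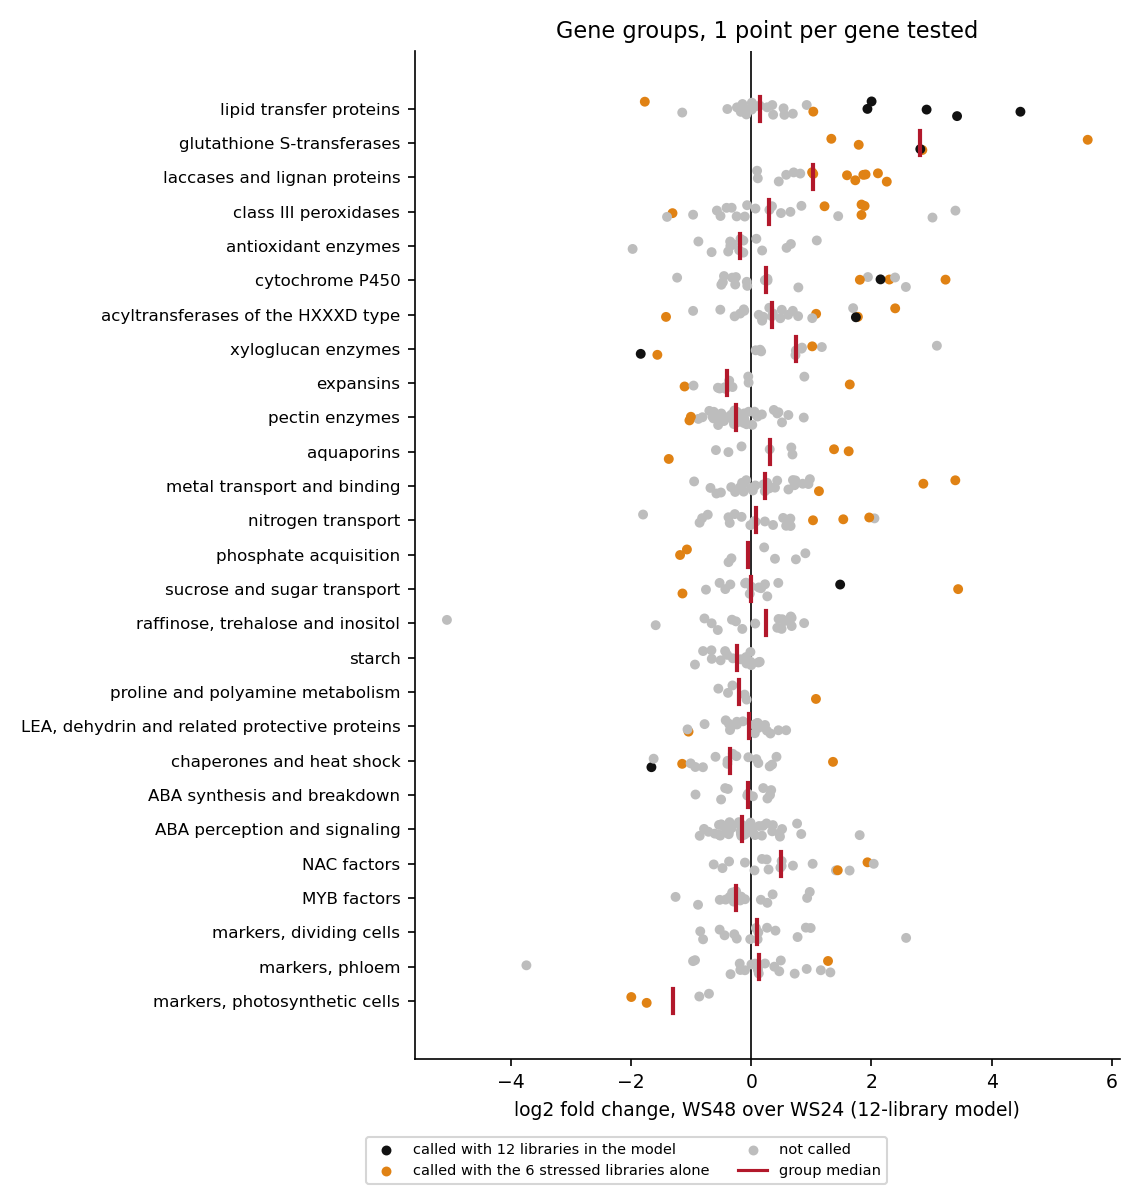
Log2 fold change of WS48 over WS24 in the 12-library model (x) for the tested genes of 27 groups (y), 1 point per gene, with the group median as a red bar and called genes in black (12 libraries) or orange (6 stressed libraries alone). The medians of glutathione S-transferases (2.81) and of laccases and lignan proteins (1.02) lie to the right, that of the photosynthetic markers (-1.30) to the left, and those of the ABA groups near 0.

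Cell type markers gave calls in the 6-library fit for xylem, phloem and photosynthesis, and none for dividing cells or root hairs. The 12 xylem markers, 9 of which are laccases and so belong to the group above, summed to 99.2, 165 and 104 CPM in WS48, against 51.1, 41.3 and 57.4 CPM in WS24. They summed to 773 to 1459 CPM in WW48 and 255 to 1051 CPM in WW24, and 6 of the 10 tested with 6 libraries were called higher there. The 16 markers of dividing cells summed to 1020, 863 and 1026 CPM in WS48, against 1127, 1055 and 1132 CPM in WS24, with no call in either fit and a median of 0.09. Single members moved in both directions, and without overlap 3 lay above and 5 below WS24. In the 6-library fit 10 of 15 had an unadjusted p under 0.05 (66.7%, against 29.2% of all genes). That fit called 2 higher when WS48 replicate 2 was left out. The histone gene Gh_D10G0496 averaged 25.2 CPM in WS48 and 12.7 CPM in WS24. The tubulin gene Gh_A07G1077 averaged 45.1 CPM in WS48 and 81.3 CPM in WS24. Phloem markers summed to 135 to 141 CPM in WS48 and 124 to 140 CPM in WS24, and 1 of 21, Gh_D12G2486, was called higher with 6 libraries (log2 fold change 1.29, edgeR QL adjusted p = 0.0188). The 5 root hair markers summed to 160 to 207 CPM in WS48 and 131 to 185 CPM in WS24, with no call. The 4 photosynthesis genes, in roots grown in the dark, summed to 11.2, 7.87 and 9.53 CPM in WS48, against 19.6, 18.9 and 20.1 CPM in WS24, and 2 photosystem I subunits, Gh_A08G0609 and Gh_A11G1245, were called lower with 6 libraries. The 1 gene listed by name for the root cap, Gh_D11G2295 (root cap 1), had 6.05 to 7.52 CPM in WS48 and 7.515 to 8.78 CPM in WS24, with overlapping groups. Its Arabidopsis namesake is a plastid maltose exporter, so it is no defining marker of that tissue. The part of a change in cell types in the laccase, lignan and expansin results was not tested.

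Genes with no function in the tables used, 96.5% of those tested, held 42 of the 56 that rose and 100 of the 112 that fell. The IDs with the largest changes are given as they stand in the count table. Gh_A10G1382 had 2.21, 6.26 and 1.48 CPM in WS48 and no read in any WS24 library, at least 35.6-fold higher when WS24 is set at a floor of 3 counts over the group. Gh_A10G0697 had 2.21, 1.43 and 3.71 CPM in WS48 and no read in WS24, at least 24.6-fold higher by the same floor. Gh_A13G0416 fell, with 7.77, 1.97 and 4.45 CPM in WS48, against 77.6, 70.0 and 69.9 CPM in WS24 (log2 fold change -3.94, edgeR QL adjusted p = 0.0152). Gh_D05G0174 fell to 0.192, 0.179 and 0.106 CPM in WS48, against 2.99, 4.31 and 2.44 CPM in WS24 (log2 fold change -4.23, edgeR QL adjusted p = 0.0228).

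Both subgenomes held calls at shares near those of all genes, 0.127% higher and 0.255% lower. Of 21274 A-subgenome genes tested, 25 rose (0.118%) and 42 fell (0.197%). Of 22018 D-subgenome genes, 31 rose (0.141%) and 63 fell (0.286%). Genes on unplaced scaffolds, 646 of those tested, had no rise and 7 falls (1.08%). With 6 libraries they had 13 higher and 25 lower calls (2.28% and 4.39%, against 2.57% and 1.13% of all genes). Gh_Sca039726G01, mitochondrial F0-ATPase subunit 9, and Gh_D04G0931, a cytochrome oxidase, were both called lower with 6 libraries. Gh_D04G0931 had 18.2, 19.6 and 21.4 CPM in WS48, against 47.6, 75.1 and 37.4 CPM in WS24. These were chosen after their values were seen.

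The well-watered tips were compared between the same times. In the same 12-library model, 1553 genes were higher in WW48 than in WW24 (3.53%) and 553 lower (1.26%). These counts stand beside 56 and 112 in stressed tips in that model and 1061 and 468 in the 6-library fit, so the counts do not rank the 2 conditions. The means of that comparison share no library with WS48/WS24. The 12-library model takes the spread of each gene from all 12 libraries, so the lists of called genes are not independent. Of the 56 genes that rose in stressed tips, 14 (25.0%) were also higher in WW48, which is 0.901% of the watered list, and none was lower. Of the 112 that fell, 44 (39.3%) were also lower in WW48, 7.96% of the watered list, and none was higher. With stressed calls from the 6-library fit, 306 genes were higher in both (28.8% of the stressed and 19.7% of the watered list) and 92 lower in both (19.7% of the stressed and 16.6% of the watered list), while 1 and 2 went opposite ways. Across all 43938 genes the log2 fold changes of the 2 comparisons had a Pearson correlation of 0.586, given as a description over genes, which are not independent replicates.

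A test of the difference between the stressed and the watered time change called no gene (0.0%) with 12 libraries, while 5160 genes had an unadjusted p under 0.05 and the lowest edgeR QL adjusted p was 0.0664. DESeq2 called 399 genes and limma-voom called 0. Without WW24 replicate 2, edgeR QL called 598 genes with a higher (1.32%) and 1059 with a lower (2.35%) change in stressed tips. Gh_A11G1551 had a log2 change of 1.28 in stressed and -0.52 in watered tips, a difference of 1.79 (edgeR QL adjusted p = 0.0664 with 12 libraries and 0.00462 without WW24 replicate 2). Gh_A11G0236 had 2.92 in stressed and -0.55 in watered tips, a difference of 3.47 (edgeR QL adjusted p = 0.0664 and 0.00462 in the same fits). Gh_D05G3116 had -2.69 in stressed and 0.98 in watered tips, a difference of -3.68 (edgeR QL adjusted p = 0.106 and 0.00183). Gh_D10G0926, phospholipase A 2A, changed by 1.48 in stressed and 1.502 in watered tips, and Gh_A09G1509 by 2.85 in each, and neither difference passed in either fit. The glutathione S-transferases Gh_D13G1617 and Gh_A09G1510 also passed in neither. Gh_D09G1520, of that class, changed by 1.79 in stressed and 3.01 in watered tips. Its difference passed without WW24 replicate 2 (-2.24, edgeR QL adjusted p = 0.0310) and not with 12 libraries (-1.22, edgeR QL adjusted p = 0.554).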

How the data were processed

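RNA of 12 root-tip libraries was sequenced, and read counts per gene were deposited by the authors, who aligned reads to the upland cotton assembly NAU-NBT v1.1 with HISAT2 1.0 and counted them with HTSeq 0.6.1, as the paper's methods and submitters' processing notes state. The setting for strand in counting was not stated. The authors also deposited TMM-normalized values rounded to whole numbers (a score, not used). Replicates are independent experiments. Rows without a gene were dropped, and all columns mapped to a sample. Of 70477 genes, 43938 passed filterByExpr. Counts were tested with edgeR 4.0.16 (R 4.3.3), TMM scaling and the quasi-likelihood test, 1 mean per group over 12 libraries. Alternatives used DESeq2 1.42.0 and limma 3.58.1, other filters, scalings and sample sets. Scripts were tested on simulated data. Functions came from the study's gene lists, picked on these libraries or through ortholog groups that hold such genes, and members, lists and tests were chosen with earlier results of these data known. Genes named were, among called genes with a function, the 10 largest changes in each direction and the 5 most abundant. Most groups added some of their 4 largest changes at a mean of at least 1 CPM, not always the largest. A few members of the same families were named beside these. Without function, 2 IDs per direction were named. No sequence is shown, as no cotton genome was used here.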

Additional observations from a re-analysis of the deposited data

How the results depend on the processing

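The counts of called genes depended on the model. The direction of the 29 called genes named by the rules above did not turn under any of 21 alternatives. Gh_D10G0577, added after its values were seen, is not among the 29. The counts, with higher before lower, were 571 and 290 with DESeq2, 629 and 342 with edgeR's exact test, 1061 and 468 with the 6 stressed libraries alone, and 2 and 1 with a test against a log2 change of 1. Library size without TMM gave 96 and 121, no low-count filter 119 and 138, a filter of 3 CPM 37 and 100, and an adjusted p of 0.01 gave 10 and 23. Leaving out 1 stressed library gave 6 to 12 higher and 16 to 37 lower, with 5 to 9 of the 29 still called. Without WW24 replicate 2, the counts were 832 and 382. The 6 stressed libraries without WS48 replicate 2, chosen after seeing the data, gave 937 and 461. The difference between stressed and watered time changes was called in 399 genes with DESeq2, 22 without the filter, 9 with library size alone, 0 with any stressed library left out and 1657 without WW24 replicate 2. Library size alone moved higher calls to 44.2% of all, against 33.3% with TMM. Deviations of same-numbered replicates 1, 2 and 3 correlated at -0.0877, -0.0868 and 0.0444 between WS48 and WS24, at -0.0231, 0.38 and 0.332 between WW48 and WW24, and at 0.255, 0.236 and 0.00347 between WS48 and WW48. Not every pair passed 0.1, so the numbers were not taken to pair the samples. A replicate block gave 145 and 131 calls with 12 libraries, and 992 and 421 with 6. The log2 fold change of Gh_A05G1932, a glucosyltransferase that is not called, was 1.15 and turned to -1.75 in the 6 libraries without WS48 replicate 2. The cause of these shifts was not tested. With 3 libraries a group, a change near the fold threshold can go undetected, and a change under it was not called by rule. Genes with near-identical A and D copies or neighbouring copies share reads.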
